A study of Mus musculus with 35 samples.

Results

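The genes described here encode the AP-1 transcription factors Fos, Fosb, Fosl1, Fosl2, Jun, Junb and Jund and the related factors Atf3 and Maff. They were taken by name, and all 9 were found among the 43629 genes of the mRNA-seq counts. Expression was measured in the left hippocampus of 19 C57BL/6J mice of both sexes aged 6 to 7 weeks. SE, a prolonged seizure, was induced with pilocarpine, a muscarinic agonist given intraperitoneally at 350 mg/kg by the labels after scopolamine, which blocks its peripheral effects. By the study's methods that was the starting dose, and smaller ones followed until a mouse had seizures. The final dose can therefore differ between mice and between times, and the labels do not give it. Control mice received scopolamine and saline vehicle. Tissue was taken from 3 SE mice and 2 controls 1 h after seizures began, and from 2 SE mice and 3 controls at 8 h. The groups of 36 h and 120 h hold 3 SE mice each and share 3 controls, so both times are read against the same animals. These controls carry a 36-h time label but are marked t0 in their titles, so when their tissue was taken is uncertain. The effects are those of a chemoconvulsant and of seizures together, since no group received pilocarpine without seizures.

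AP-1 is a dimer of basic leucine zipper proteins, in which a FOS protein pairs with a JUN protein, or JUN proteins pair with each other, and binds short DNA elements near its target genes. Most of these genes are immediate early genes, which neurons transcribe within minutes of strong activity without new protein synthesis, from factors such as CREB and SRF that are already bound. In the hippocampus, Fos is the classical marker of recently active neurons, and Fosb also gives a truncated and stable product, ΔFosB, that builds up after repeated seizures. Counts per gene do not separate that splice form from full length Fosb. In NCBIM37, the build stated for the alignment, the annotation used here places the FOS genes Fos at chr12:86814840-86818223, Fosb at chr7:19888070-19895394, Fosl1 at chr19:5447703-5455945 and Fosl2 at chr5:32438845-32460204. The JUN genes lie as single exon blocks, Jun at chr4:94715725-94718913, Junb at chr8:87500811-87502617 and Jund at chr8:73221638-73224515, and Atf3 at chr1:192994175-193007219 and Maff at chr15:79177971-79189502 have 4 exon blocks each.

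The promoters of the 5 genes with the greatest 1-h differences are shown with that of Jun, which did not pass at 1 h, so they were picked by these values. A match was found for 8 of the 9 genes in the RefSeq promoter sequences of GRCm38.p6, each with 250 bases before and 50 after the annotated start; Fosl1 was not matched. The stretches printed run from 130 bases before the start to 20 bases after it, 5′ to 3′ on the strand of the gene. Capitals mark TGACG, the core of the cAMP response element bound by CREB and ATF proteins, or its complement CGTCA, the whole element TGACGTCA, and the TATA box TATAAA.
Fos (chr12:85473760-85473909, plus strand): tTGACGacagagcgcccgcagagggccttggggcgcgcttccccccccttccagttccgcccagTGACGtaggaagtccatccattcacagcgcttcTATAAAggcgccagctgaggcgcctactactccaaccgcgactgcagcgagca
Fosb (chr7:19310026-19310175, minus strand): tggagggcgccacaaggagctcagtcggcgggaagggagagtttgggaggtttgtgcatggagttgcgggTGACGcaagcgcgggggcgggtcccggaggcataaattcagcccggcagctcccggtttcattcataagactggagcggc
Junb (chr8:84978729-84978878, minus strand): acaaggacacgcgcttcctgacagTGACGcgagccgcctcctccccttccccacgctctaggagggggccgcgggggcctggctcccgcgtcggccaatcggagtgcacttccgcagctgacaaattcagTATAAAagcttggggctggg
Atf3 (chr1:191183314-191183463, minus strand): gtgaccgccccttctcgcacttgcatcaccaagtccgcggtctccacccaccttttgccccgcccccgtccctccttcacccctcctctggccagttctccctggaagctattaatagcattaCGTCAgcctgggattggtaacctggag
Maff (chr15:79347390-79347539, plus strand): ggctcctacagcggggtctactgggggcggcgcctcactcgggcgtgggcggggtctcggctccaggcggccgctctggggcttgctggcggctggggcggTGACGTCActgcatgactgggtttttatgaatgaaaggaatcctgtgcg
Jun (chr4:95052203-95052352, minus strand): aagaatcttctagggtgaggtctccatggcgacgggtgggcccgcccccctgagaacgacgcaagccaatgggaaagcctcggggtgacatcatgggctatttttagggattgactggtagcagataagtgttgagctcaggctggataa
At least 1 such core lay within the 300 bases of Fos, Fosb, Junb, Atf3 and Maff, and none lay in those of Fosl2, Jun and Jund. Fos had 2, which began 129 and 66 bases before the start. Of 3 annotated starts of Maff, the one printed held the whole element, a second held a core and the third held none. A core on either strand was present in 20.8% and the whole element in 1.79% of 32851 mouse promoters of the same length. TATAAA stood before the start of Fos and at the start of Junb, against 13.6% of all promoters. The AP-1 element TGANTCA, present in 7.81% of promoters, had no match in any of these windows, nor had the SRF-bound CArG box, present in 1.63%. The windows end 250 bases before the start, so elements farther upstream were not searched, and their absence from these genes cannot be read from this. The motifs were chosen with the expression values known, and a match is a string of letters and not a measured site. Only exact strings were counted, and the Jun stretch holds tgacatca, a near match of the whole element that was left unmarked. Whether these strings bear on the 1-h differences was not tested.

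Total counts ranged from 8503816 to 28465548 per library. Markers of excitatory neurons, interneurons, astrocytes, microglia, oligodendrocytes and endothelial cells were detected in all libraries. A score of 20 choroid plexus markers (mean log2 CPM, where CPM are counts scaled to the library size) was high in every 1-h library. It was 5.79 and 5.41 in the 1-h controls and 6.33, 5.82 and 5.98 after SE, so every SE mouse lay above both controls. At 8 h the score was 3.45, 5.69 and 3.69 in the controls and 5.44 and 5.31 after SE. It was 0.743 to 1.10 in the late controls, and among late SE mice it was 5.43, 5.41 and 0.855 at 36 h and 0.837, 0.942 and 5.64 at 120 h. Xist, the RNA of the inactive X chromosome, had 5729 to 22835 counts in 7 libraries and 0 to 18 in the other 12, with high counts in 2 of 3 late controls and in 0 of 3 mice at 36 h. By the batch label, 1-h control 1 and SE 3 are from G511 and the other 1-h mice from G369, 8-h control 1 is from G511 and the other 8-h mice from G317, and all late mice are from G545. In bulk tissue, fewer cells of a type and less RNA per cell cannot be told apart.

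In the hippocampus of control mice the JUN genes were the most abundant members. The levels in this paragraph are CPM divided by the exon length in kb, as means over the 8 controls. Jun had 29.4 CPM per kb (range 20.2 to 36.9), Jund 24.0 (11.3 to 52.7) and Junb 15.8 (11.9 to 21.1). Among the FOS genes, Fosl2, which encodes the FOS-related protein FRA2, was highest at 8.84 CPM per kb (6.63 to 10.2). Fos followed at 2.85 (1.12 to 8.22) and Fosb at 1.89 (1.48 to 2.93). Atf3, a stress-induced partner of JUN, had 0.376 CPM per kb (0.148 to 0.725), and Maff, a small MAF protein with no activation domain of its own, had 0.274 (0.142 to 0.462). Neighbours in this order overlapped between mice, except Junb and Fosl2, and Fosb and Atf3. Fosl1, which encodes FRA1, had 0 to 5 counts in each of the 19 libraries and did not pass the filter on low counts, so it was not tested.

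**Figure D1:**
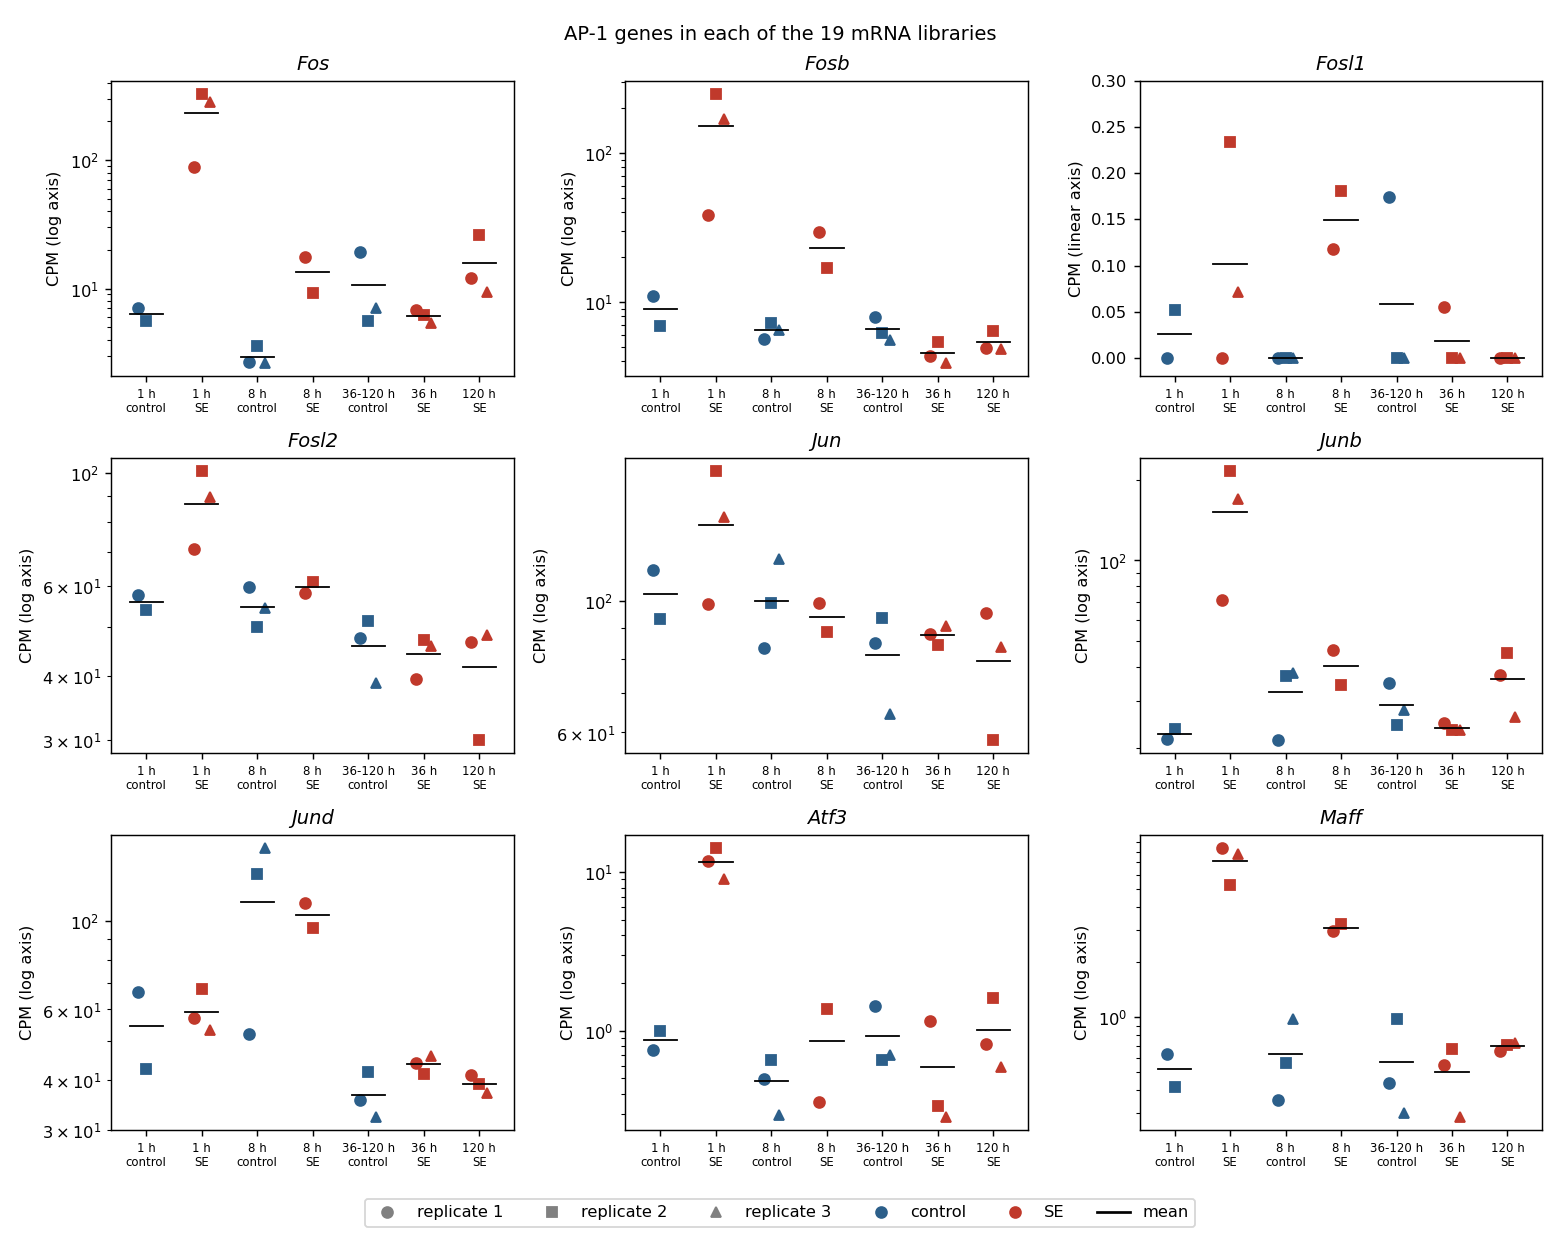
CPM of each AP-1 gene (y axis, log scale except for Fosl1) in each of the 19 libraries, by group (x axis), with SE mice in red, controls in blue and the group mean as a line. Fos, Fosb, Junb, Atf3 and Maff stand far above their controls at 1 h, and Fos, Fosb and Maff remain above them at 8 h.

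At 1 h, Fos, Maff and Atf3 rose. By edgeR's quasi-likelihood test with Benjamini-Hochberg adjustment over all genes, 3 of the 8 members tested were higher in SE and 0 were lower, where 0.0799% of 16264 genes were higher. In 6 members every SE mouse lay above every control, a separation that 9.91% of all genes showed. The median log2 fold change of the 8 members was 3.24, beside -0.002 for all genes tested. The adjusted p values of 5 members passed with the likelihood ratio test (background 0.332%) and with DESeq2 (0.314%), Fosb and Junb being the additional genes. When the choroid plexus score was added to the fit, edgeR's test called 2 members (background 0.0615%), Fos and Junb (adjusted p = 0.036 and 0.037). Atf3 and Maff, at 3.93 ± 0.43 and 3.22 ± 0.46, did not pass in that fit (edgeR adjusted p = 0.064 and 0.15).

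Fos, the founding FOS gene, had 7.03 and 5.62 CPM in the controls and 89.0, 325 and 281 CPM after SE. Each SE mouse was 14.1 to 51.4 times above the control mean, and the groups were far apart. The log2 fold change was 5.20 ± 0.58 (standard error, n = 3 and 2 mice; edgeR adjusted p = 0.028). Maff had 0.627 and 0.416 CPM in the controls and 8.34, 5.28 and 7.73 CPM in SE mice. Its SE values lay 10.1 to 16.0 times above the control mean, from only 8 and 10 counts in the control libraries. Its log2 fold change was 3.76 ± 0.39 (edgeR adjusted p = 0.025). Atf3 had 0.753 and 0.989 CPM in the controls and 11.8, 14.1 and 9.08 CPM in SE mice, again without overlap. Its log2 fold change was 3.72 ± 0.32 (edgeR adjusted p = 0.007).

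Fosb and Junb were also separated between the groups. Fosb had 11.0 and 6.92 CPM in controls and 38.0, 246 and 169 CPM after SE (log2 fold change 4.09 ± 0.74, edgeR adjusted p = 0.21). Junb, a JUN protein that is a weak activator and can restrain JUN, had 21.6 and 23.4 CPM in controls and 71.2, 215 and 170 CPM after SE (2.75 ± 0.42, edgeR adjusted p = 0.12). Neither passed this test without a covariate. Without SE replicate 1, Fosb, Junb, Fos, Atf3 and Maff all passed (5 of 8, where 0.207% of genes were higher), and without SE replicate 2 or control replicate 1 none of the 8 passed, so the number of calls at 1 h depended on single libraries.

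Fosl2, Jun and Jund did not pass at 1 h. Fosl2 had 57.8 and 54.0 CPM in controls and 70.8, 101 and 89.5 CPM in SE mice, without overlap (log2 fold change 0.64 ± 0.16, edgeR adjusted p = 0.71). Jun, the classical partner of FOS, had 113 and 93.2 CPM in controls and 98.8, 166 and 139 CPM in SE mice, so the groups overlapped (0.38 ± 0.20). Jund, the constitutive JUN gene of many tissues, had 66.3 and 42.7 CPM in controls and 57.0, 67.4 and 53.2 CPM in SE mice, likewise overlapping (0.12 ± 0.20). Exons of Fosl1, Jun and Jund overlap a gene on the other strand, and the strand setting of the counting was not given in the sources used here.

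The 3 SE mice of 1 h did not differ in the same way for every gene. SE replicate 1 was lowest of the 3 for Fos, Fosb, Fosl2, Jun and Junb. The mean of the other 2 was 3.40 times its level for Fos, 5.46 times for Fosb and 2.70 times for Junb. For Atf3 and Maff, by contrast, that ratio was 0.981 and 0.780. This library also had the fewest genes with a count at 1 h, 19003, and its part in the pattern was not tested.

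**Figure D2:**
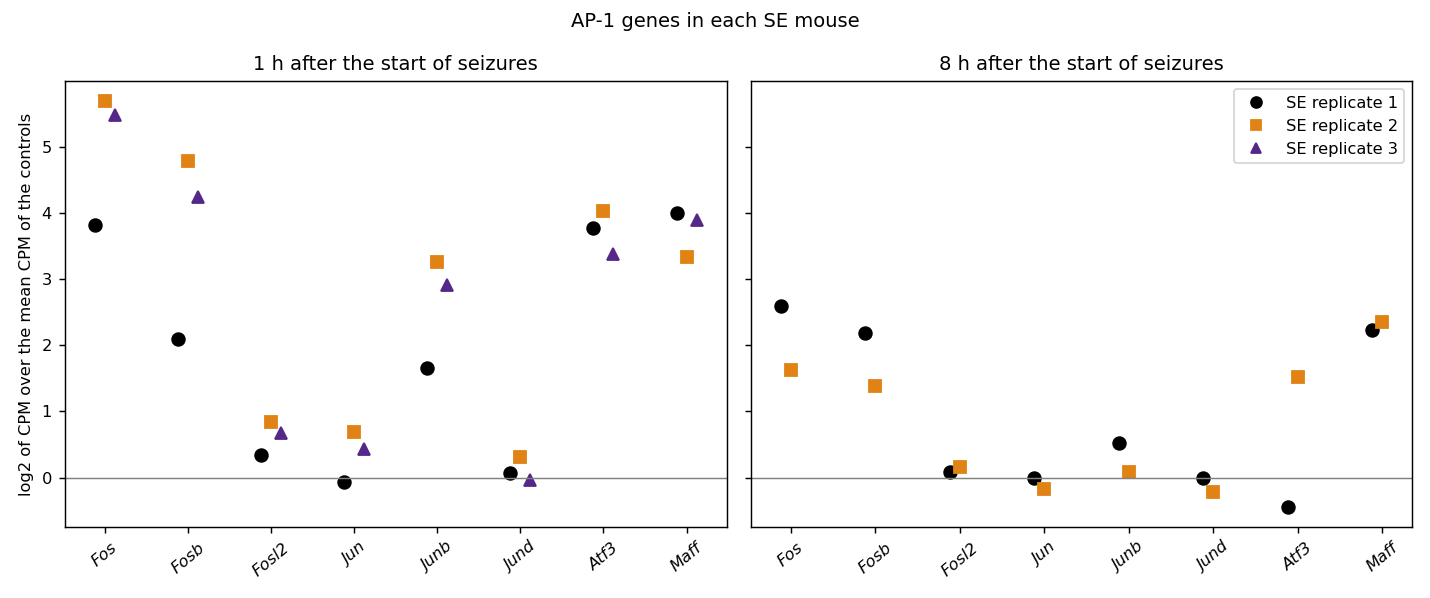
Log2 of the CPM of each SE mouse over the mean CPM of the controls of its time (y axis) for the 8 members (x axis), at 1 h (left) and 8 h (right). At 1 h, SE replicate 1 sits below the other mice for Fos, Fosb and Junb, between them for Atf3 and above them for Maff.

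The composition of both families differed from that of controls at 1 h. Summed per kb of exon, the FOS genes had 15.8 and 13.5 CPM per kb in the 1-h controls, and 60.1, 221 and 180 after SE. Fosl2 made up 62.5% and 68.4% of that sum in controls and 7.78% to 20.1% after SE, while Fos made up 17.7% and 18.9% in controls and 62.5% to 66.4% after SE. The JUN genes summed to 70.4 and 57.0 CPM per kb in controls and 90.2, 194 and 156 after SE. Junb made up 17.0% and 22.7% of the JUN sum in controls and 43.7% to 61.2% after SE. These sums restate the values above and were not tested.

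**Figure D3:**
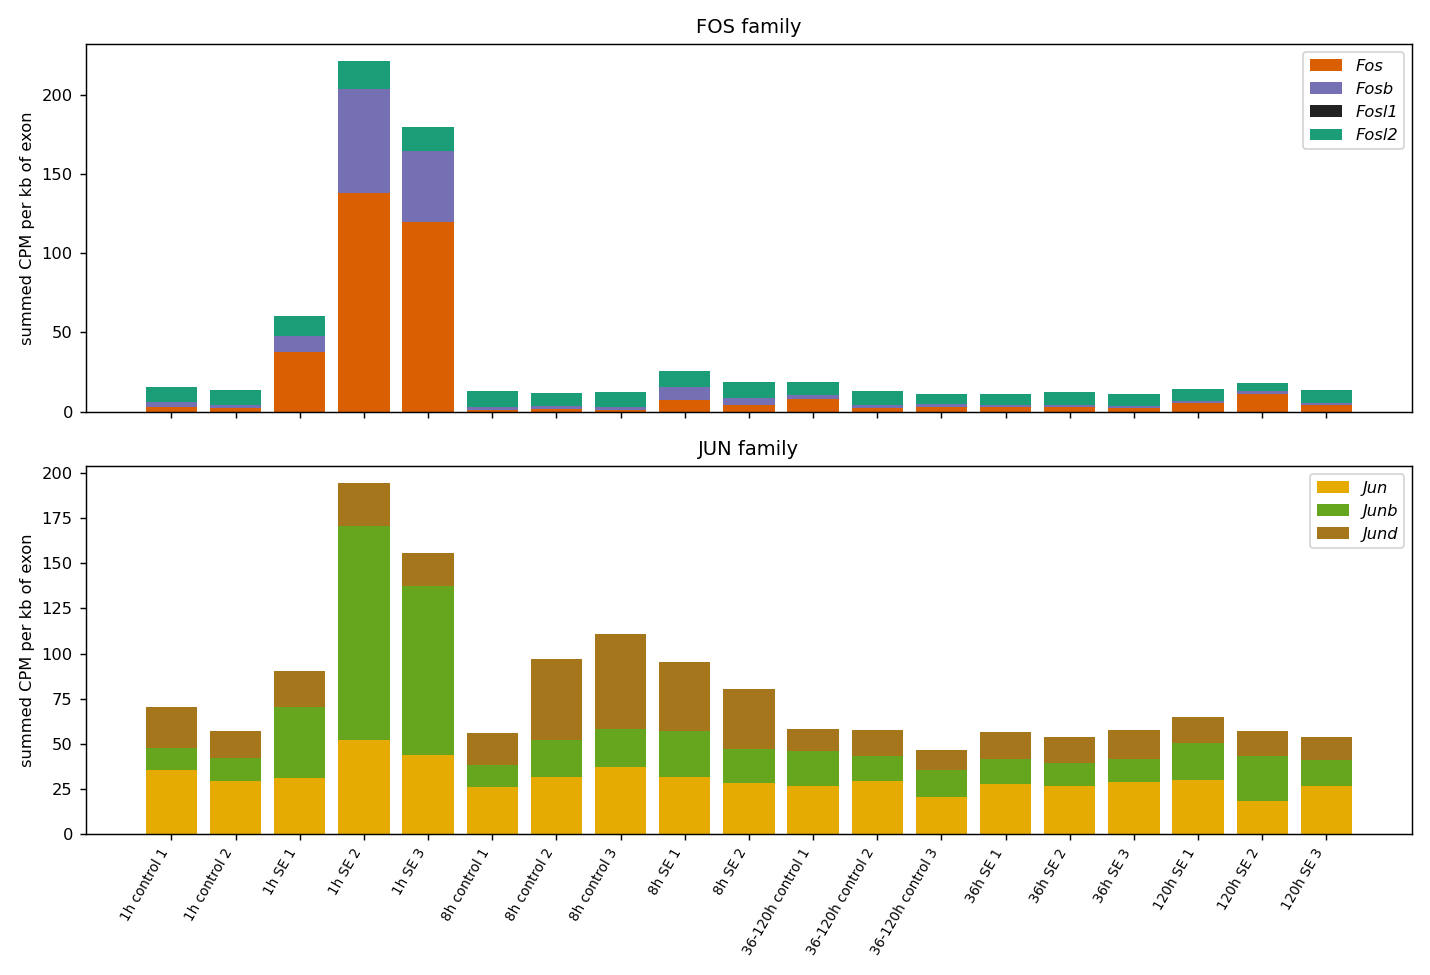
Summed CPM per kb of exon (y axis) of the FOS genes (top) and the JUN genes (bottom) in each library (x axis), stacked by gene. Fosl2 is the largest FOS share in all controls except late control 1 (43.8%, beside 44.3% for Fos), and Jun is the largest JUN share in all except 8-h controls 2 and 3, where Jund is. In the 1-h SE mice Fos and Junb are the largest shares.

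At 8 h, Fos, Fosb and Maff were still above every control in both SE mice, but no member passed the main test. The quasi-likelihood test of edgeR called 0 of 7 members and 0% of 15610 genes. Without adjustment, 3 members and 9.47% of all genes had p under 0.05. The likelihood ratio test called 3 members, Fos, Fosb and Maff (0.173% of genes higher), and DESeq2 called 2, Fos and Fosb (0.128%). All SE libraries above all controls was seen in 14.6% of genes at this time, against 3 of the 7 members. The median log2 fold change of the members was 0.31, beside -0.009 for all genes.

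Fos had 2.68, 3.54 and 2.64 CPM in the 8-h controls and 17.8 and 9.15 CPM after SE, 6.01 and 3.10 times the control mean (log2 fold change 2.15 ± 0.35, edgeR adjusted p = 0.23). Fosb had 5.63, 7.18 and 6.45 CPM in controls and 29.3 and 16.8 CPM after SE (1.82 ± 0.28, edgeR adjusted p = 0.21). Maff had 0.352, 0.559 and 0.978 CPM in controls and 2.94 and 3.22 CPM after SE (2.30 ± 0.57, edgeR adjusted p = 0.44). SE replicate 1 was the higher mouse for Fos and Fosb, while the pair were close for Maff. When the choroid plexus score was added to the fit, the log2 fold changes were 1.92 for Fos, 1.66 for Fosb and 2.34 for Maff (edgeR adjusted p = 0.82, 0.81 and 0.82).

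Junb, Fosl2, Jun and Jund overlapped the controls at 8 h. Junb had 21.4, 37.2 and 38.1 CPM in controls and 46.2 and 34.2 CPM after SE (log2 fold change 0.31 ± 0.27). Atf3 was below the filter, with 0.493, 0.653 and 0.293 CPM in controls and 0.353 and 1.37 CPM after SE. Its SE replicate 2 lay above all controls, at 2.87 times their mean from 38 counts, and SE replicate 1 lay within their range. Fosl2 and Jun differed by a log2 fold change of 0.11 ± 0.16 and -0.10 ± 0.18. Fosl1 had 1 and 5 counts in the SE libraries and 0 in all 3 controls, too few for a fold change.

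Jund spread widely among the controls at 8 h. It had 52.0 CPM in control 1, of batch G511, and 130 and 152 CPM in the controls of batch G317, with 111 and 95.9 CPM in the SE mice, which are also of G317. Since control 1 is the only 8-h mouse of G511, batch and mouse cannot be told apart. Over all libraries of the time, the log2 fold change was -0.12 ± 0.37 (edgeR adjusted p = 0.93). With batch as a covariate, which leaves the effect to the G317 mice, Jund was lower in SE at -0.46 (edgeR adjusted p = 0.024), and Fos and Fosb were higher, at 2.08 and 1.72 (edgeR adjusted p = 0.0055 and 0.0036). In that fit 5.98% of all genes were higher and 7.54% were lower, so the 2 higher and 1 lower of 7 members are to be read against a larger background.

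The SE effect at 8 h minus that at 1 h was negative in all 8 members tested, by the point estimates. The median difference of the members was -1.85, beside -0.003 for all genes. For Jund the effect was 0.12 at 1 h and -0.12 at 8 h, so it changed sign and not size. Jun likewise went from 0.38 to -0.10. None of the members passed edgeR's test of the difference itself (0 of 8, beside 0.149% of 17415 genes in either direction). Without adjustment, 4 had p under 0.05, as had 12.3% of all genes. Junb came closest, with a difference of log2 fold changes of -2.44 ± 0.49 (edgeR adjusted p = 0.052). The differences were -3.06 ± 0.85 for Fos, -2.70 ± 0.89 for Atf3, -2.26 ± 0.69 for Fosb and -1.44 ± 0.69 for Maff. The likelihood ratio test and DESeq2 each called 2 members, Fos and Junb (background 0.482% and 0.804%), and RLE normalization brought Junb to an adjusted p of 0.048 with edgeR (background 0.132%).

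**Figure D4:**
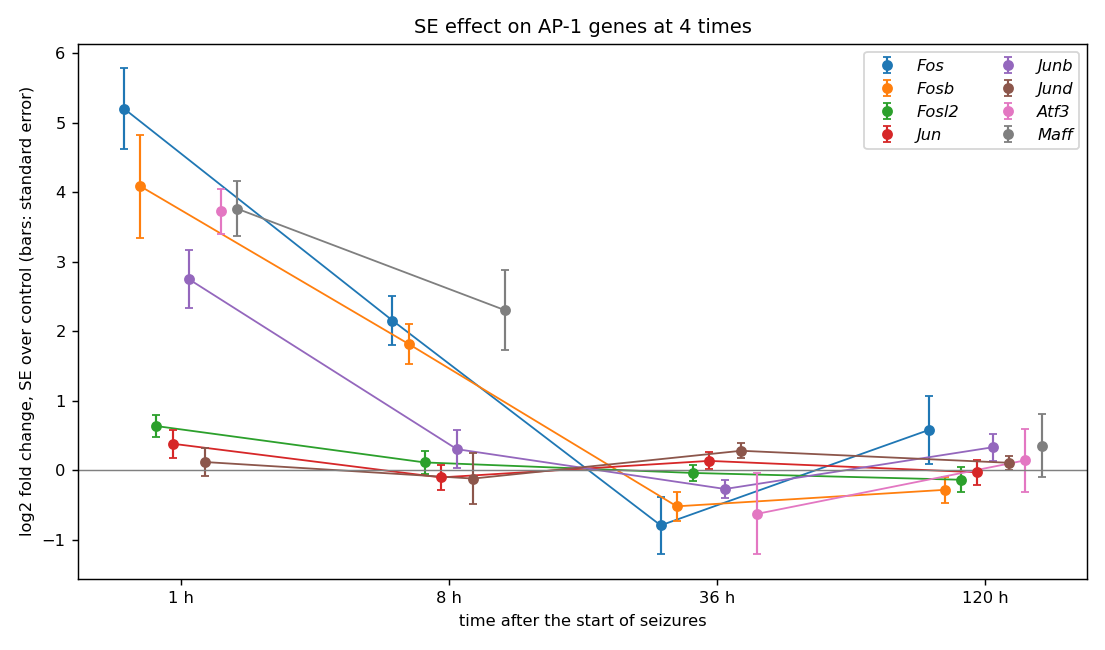
Log2 fold change of SE over control (y axis, bars are standard errors of the edgeR fit) at each time (x axis) for each tested member, joined where adjacent times were both tested. The values for Fos, Fosb, Junb, Atf3 and Maff lie between 2.75 and 5.20 at 1 h, those of Fos, Fosb and Maff between 1.82 and 2.30 at 8 h, and all lie between -0.79 and 0.58 at 36 h and 120 h.

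By 36 h the AP-1 genes had SE levels near or below those of controls. The edgeR test called 0 of 7 members (0.0252% of 15850 genes in either direction), and so did the likelihood ratio test (0.789%) and DESeq2 (0.644%). Without adjustment, Fosb and Jund had p under 0.05 with edgeR, as had 7.89% of all genes. Fosb had 7.89, 6.19 and 5.55 CPM in the late controls and 4.35, 5.33 and 3.89 CPM in SE mice, all of them below all controls, as in 8.28% of all genes. Its log2 fold change was -0.52 ± 0.20 (edgeR adjusted p = 0.57). When the choroid plexus score was added to the fit it was -0.74 ± 0.27 (edgeR adjusted p = 0.28). Xist counts also differed between these groups, and their part was not tested.

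Fos had 19.3, 5.61 and 7.10 CPM in the late controls and 6.78, 6.27 and 5.38 CPM in the 36-h SE mice. The difference of -0.79 ± 0.41 rested on control 1 and was -0.04 without it. That control also had the highest Fosb, Junb and Atf3 of the 3, with 34.9 CPM of Junb against 24.3 and 27.6, and 1.44 CPM of Atf3 against 0.652 and 0.700. Junb had 24.7, 23.3 and 23.2 CPM in the 36-h SE mice (log2 fold change -0.27 ± 0.13), and Jund was slightly higher in SE (0.28 ± 0.11, edgeR adjusted p = 0.56). Atf3, Jun and Fosl2 had log2 fold changes of -0.62 ± 0.58, 0.14 ± 0.12 and -0.04 ± 0.12, and Maff was below the filter. The Atf3 value was -0.15 without control 1 and -1.59 without SE replicate 1.

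Between 8 h and 36 h the effect of SE on Fos differed by -2.95 ± 0.79, that on Maff by -2.47 ± 0.67 and that on Fosb by -2.36 ± 0.67. With edgeR's test 0 of 8 members passed (adjusted p = 0.12, 0.13 and 0.15), beside 0.144% of genes in either direction, and these 3 had p under 0.05 without adjustment, as had 14.1% of all genes. The likelihood ratio test called these 3 genes (background 0.471%) and DESeq2 called 2 of them, Fos and Maff (0.678%).

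At 120 h no member passed, and the groups of all 8 overlapped, where 15.4% of genes were separated one way or the other. The edgeR test called 0 of 8 members (0.0563% of 15996 genes), and so did the likelihood ratio test (0.475%) and DESeq2 (0.744%). Without adjustment, 0 members and 9.6% of all genes had p under 0.05 with edgeR. Fos had 12.1, 26.3 and 9.40 CPM in SE mice, against the late controls given above (log2 fold change 0.58 ± 0.49). Junb had 37.2, 45.2 and 26.1 CPM (0.33 ± 0.19). SE replicate 2 had the highest Fos, Fosb, Junb and Atf3 of its group and also the lowest Fosl2 and Jun, at 30.1 and 58.3 CPM. The contrast of 120 h with 36 h called 0 of 8 members by the edgeR test (0.0804% of genes), the likelihood ratio test (0.241%) and DESeq2 (0.247%). Fos, at 1.39 ± 0.49 (edgeR adjusted p = 0.82), was the 1 member with p under 0.05 without adjustment, beside 4.21% of all genes.

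Genes around AP-1 were read from 3 lists. Of 26 kinases and factors that act upstream of AP-1, such as the ERK and JNK kinases, SRF and its partners, edgeR's test called 0 at each of the 4 times, and 0, 3, 2 and 6 had p under 0.05 without adjustment, in order of time. Over all genes, that share was 4.39%, 9.47%, 7.89% and 9.6% at the same times. Their median log2 fold change at 1 h was -0.01, beside -0.002 for all genes. With batch as a covariate at 8 h, edgeR called 2 of the 26 higher and 3 lower, beside 5.98% and 7.54% of all genes. The smallest p at 120 h belonged to Elk1, an ERK-activated partner of SRF (-0.34 ± 0.05, edgeR adjusted p = 0.079). Elk1 was the gene that the likelihood ratio test and DESeq2 called at that time.

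Of 20 other basic leucine zipper factors that pair or compete with AP-1, 16 or 17 were tested and 0 passed at any time, by the edgeR test, the likelihood ratio test or DESeq2, and 1, 3, 1 and 5 had p under 0.05 with edgeR before adjustment, to be read against the same shares of all genes. Of the other small MAF genes, Mafk had a log2 fold change of 0.62 ± 0.25 at 1 h and Mafg one of 0.60 ± 0.17 at 8 h. Bach1, a repressor that pairs with them, had 0.92 ± 0.28 at 8 h (edgeR adjusted p = 0.999, 0.47 and 0.48). With batch as a covariate, edgeR called Mafg and Bach1 higher at 8 h, beside 5.98% of all genes. The 1 fit of all 19 libraries also called both, where 179 of 17415 genes were higher. At 1 h Mafg had a mean of 65.9 CPM in SE mice and 74.2 CPM in controls, and at 8 h Mafk had 12.3 and 10.5 CPM.

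Of 25 genes known as AP-1 targets, 16 to 18 were tested and 0 passed the edgeR test at any time, and 3, 4, 6 and 1 had p under 0.05 before adjustment, beside those shares of 4.39%, 9.47%, 7.89% and 9.6%. Vim, an intermediate filament of reactive glia, and Timp1, a metalloproteinase inhibitor, had log2 fold changes of 0.95 ± 0.12 and 3.92 ± 0.57 at 36 h (edgeR adjusted p = 0.069 and 0.11). The likelihood ratio test and DESeq2 each called these 2 targets. With batch as a covariate at 8 h, edgeR called 1 of 16 targets higher and 2 lower, beside 5.98% and 7.54% of all genes. Pdyn, which encodes prodynorphin, had a log2 fold change of -0.83 ± 0.23 at 1 h (edgeR adjusted p = 0.85), and Penk, which encodes proenkephalin, had -0.77 ± 0.22 at 8 h (edgeR adjusted p = 0.47).

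Across the 19 libraries, log2 CPM of the members varied together in part. These correlations are descriptions, since the libraries share groups, times and batches. Pearson's r was 0.913 between Fos and Junb, 0.881 between Fos and Fosb and 0.869 between Jun and Fosl2, but -0.095 between Fos and Jund. Among 17407 other genes, those most like Fos were 1700016P03Rik (0.958), Btg2 (0.953) and Cyr61 (0.943). Atf3 was most like Errfi1 (0.936), Cyr61 (0.931) and Apold1 (0.929). Jund was most like Scand1 (0.974), Zfp703 (0.958) and Pcsk1n (0.946), none of which was among those most like the other members. Fosl2 was most like B230216N24Rik (0.926), and Jun had no gene above ENSMUSG00000103076 (0.812).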

How the data were processed

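RNA from 19 left hippocampi was sequenced as stranded poly(A) libraries. The authors aligned the reads to NCBIM37 with HISAT2 2.1.0 (per the submitters' processing notes) and deposited raw counts per gene made with HTSeq. Of 43629 identifiers, 33068 were named by GENCODE M1 (Ensembl 65). Another 10520 are above its highest identifier, so the annotation behind the counts may be a later one. Positions, exon lengths and exon overlaps are those of M1 and may differ from those used in counting. The 16 small RNA libraries were not used. All value columns of the mRNA table were matched to a sample.

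Genes were kept by filterByExpr, normalized by TMM and tested with edgeR 4.0.16 (quasi-likelihood, R 4.3.3) on the libraries of each time, with Benjamini-Hochberg adjustment and a threshold of 0.05. Times were compared by contrasts over all 19 libraries. The study's likelihood ratio test, DESeq2 1.42.0, RLE normalization, no filter, 1 fit of all libraries, a replicate block, choroid plexus score, batch and leaving out each library were alternatives. Log2 CPM for correlations carry a prior count of 1. The steps were tested on simulated data.

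All members are named. From each other list come genes past the test and up to 3 with the smallest p at each time, of which some are given, and for 5 members up to 3 genes most like them. The members, lists and motifs were chosen with earlier results of these data known. Mice are separate animals by the labels. Xist was chosen for description after its values were seen.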

Additional observations from a re-analysis of the deposited data

Results flagged for a closer look

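The direction of the Fosb difference was not the same at all times. All SE mice lay above all controls at 1 h and 8 h, with log2 fold changes of 4.09 and 1.82, and all lay below them at 36 h, with -0.52. None of these passed the edgeR test. The difference between 36 h and 8 h was tested (-2.36 ± 0.67, edgeR adjusted p = 0.15), and that between 36 h and 1 h was not. The values come from 2 or 3 mice a group, and the late mice are all of another batch than the early ones.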

How the results depend on the processing

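Of 773 values of single members under an alternative, 682 kept their direction and their side of the threshold, 60 newly passed, 9 no longer passed and 22 changed sign. The number of members called at 1 h was 3 in the main fit. It was 5 with DESeq2, the likelihood ratio test, all 19 libraries in 1 fit and the replicate block. It was 6 with no filter, 2 with the choroid plexus score (Fos and Junb), and 0 to 5 when each library was left out. Of all genes, 39 of 17415 were higher in the fit of all 19 libraries and 37 of 16264 with the block. With no filter, 173 of 24265 were higher. At 8 h the number of members called was 0 in the main fit. It was 3 with the likelihood ratio test, no filter and batch, 2 with DESeq2 and the replicate block, and 1 with all 19 libraries. When each library was left out it was 0 to 3. Of all genes, 90 of 24356 were higher and 253 lower with no filter. With the block 12 of 15610 were higher and 19 lower, and with all 19 libraries 179 of 17415 were higher and 244 lower. The 3 with batch were Fos and Fosb higher and Jund lower, against the larger background given above. The effects of 1 h and 8 h differed for 0 members in the main fit. They differed for 4 with no filter, 2 with DESeq2 and the likelihood ratio test, and 1 with RLE normalization and batch. When each library was left out, the number was 0 to 2. Of all genes, 152 of 27279 were higher and 328 lower with no filter. With RLE normalization 3 of 17415 were higher and 23 lower, but with batch 642 of 17415 were higher and 662 lower. Between 8 h and 36 h the number of members called was 0 in the main fit. It was 3 with the likelihood ratio test, no filter and batch, 2 with DESeq2, and 0 to 2 when each library was left out. The 3 with batch were Fos and Maff lower and Jund higher, where 1136 of 17415 genes were higher and 1243 lower. The 3 with the likelihood ratio test and with no filter were Fos, Fosb and Maff, all lower. With no filter, 584 of 27279 genes were higher and 162 lower. Between 36 h and 120 h the number of members called was 0, and 2 with no filter. With no filter, 66 of 27279 genes were higher and 89 lower. At 36 h and 120 h all alternatives called 0. The cause of these moves was not tested, except that batch at 8 h by construction leaves control replicate 1 without weight. Libraries that decide a count are 1-h SE replicates 1 and 2, 1-h controls 1 and 2 and 8-h control 1.

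Replicate numbers are shared between groups. Correlations of same-numbered mice ran from -0.174 to 0.15, and those of differently numbered mice from -0.181 to 0.187. These are correlations of deviations from means of 2 or 3 mice, which constrains them, so they could hardly show a pairing. As the labels give separate animals, same-numbered mice are taken to share only a number. With the replicate block, 5 members were called at 1 h and 2 at 8 h, and Jun and Jund at 8 h changed sign to 0.029 and 0.30.

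Jund at 1 h was -0.0099 with the choroid plexus score. When each library was left out, log2 fold changes that changed sign ran from -0.17 to 0.47 for Jund at 1 h, -0.22 to 0.023 for Jun and -0.47 to 0.16 for Jund at 8 h, and -0.14 to 0.049 for Fosl2 and -0.0047 to 0.25 for Jun at 36 h. At 120 h they ran from -0.0026 to 1.34 for Fos, -0.26 to 0.059 for Fosl2, -0.18 to 0.16 for Jun and -0.41 to 0.62 for Atf3. Differences between times ran from -0.59 to 0.059 for Jund (8 h minus 1 h), and from -0.20 to 0.11 for Fosl2 and -0.31 to 0.030 for Jun (120 h minus 36 h). Atf3 at 36 h kept its sign but ran from -1.59 to -0.15. With 2 or 3 mice a group, the spread is poorly known, and Atf3, Maff and Fosl1 rest on few counts in controls.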
